A study of Homo sapiens with 9 samples.

Results

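The chromatin that HepG2 cells opened and closed after transfection with the siRNA named siINO80#2 was described from 121183 accessible intervals, 52399 from the siINO80#2 peak list and 68784 from the list of the non-targeting control siRNA, NTG. The series holds 192176 unique intervals in all, over 3 lists and all chromosomes. HepG2 is a human liver cancer cell line. All cells received siRNA at 50 nM for 72 h in RNAiMAX, so the control cells were transfected too, and the siRNAs against INO80 are 2 independent ones, siINO80#1 and siINO80#2. Each siRNA had 3 replicate samples, from independent transductions, but 1 deposited list, so no value below has a replicate error and no difference between siRNAs could be tested.

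Members were the unique intervals on chromosomes 1 to 22 of GRCh37, and an overlap of 1 bp or more made an interval shared. An interval of the siINO80#2 list without overlap in the NTG list is called gained, an NTG interval without overlap in the siINO80#2 list is called lost, and the others are called kept. These words name presence in a list and not a measured change in signal. A gained interval that also overlapped the siINO80#1 list, or a lost interval that was also absent from it, is called repeated. Both siRNAs are read against the same NTG list, so repeated classes share that control. The repeated classes are also unlike in detection. A repeated gained interval was found in both INO80 siRNA lists, and a repeated lost one in the NTG list alone. Ranges after percentages are 95% Wilson intervals, a measure of counting error alone in which neighbouring intervals count as independent.

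INO80 is the ATPase of a multi-subunit complex that slides and edits nucleosomes and is found at many promoters. ATAC-seq reads accessibility by letting a transposase insert adapters into DNA that nucleosomes do not cover. AP-1 is a family of dimers of FOS, JUN, ATF and MAF proteins that bind regulatory DNA after growth and stress signals, CTCF is an insulator protein, and FOXA and HNF4A are transcription factors of the liver programme. The depletion of INO80 cannot be checked from peak lists, which hold no protein or RNA level. Of 10 liver genes, 8 had an interval at a start site with siINO80#2 and 10 with NTG. None of 5 genes of leukocytes, endothelium, muscle and neurons had one with either.

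The sequences below are summit windows of 200 bp among the strongest repeated intervals, shown because motif content separates the gained from the lost intervals. Each was read from GRCh37 on the forward strand, and each window has 1 near-identical place in that genome. Capitals mark an AP-1 match (TGACTCA or its reverse complement TGAGTCA) or a match to the CTCF motif. The first 4 windows were gained and the last 3 were lost.

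LINC00382 (chr13:80510877-80511076): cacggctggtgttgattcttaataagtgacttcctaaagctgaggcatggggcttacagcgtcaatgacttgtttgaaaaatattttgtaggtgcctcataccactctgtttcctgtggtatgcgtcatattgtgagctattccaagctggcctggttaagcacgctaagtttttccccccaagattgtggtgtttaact
EYS (chr6:64754913-64755112): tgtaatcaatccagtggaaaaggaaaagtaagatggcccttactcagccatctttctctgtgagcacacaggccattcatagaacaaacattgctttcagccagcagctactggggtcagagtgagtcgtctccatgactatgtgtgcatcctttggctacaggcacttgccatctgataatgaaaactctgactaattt
HGF (chr7:81247805-81248004): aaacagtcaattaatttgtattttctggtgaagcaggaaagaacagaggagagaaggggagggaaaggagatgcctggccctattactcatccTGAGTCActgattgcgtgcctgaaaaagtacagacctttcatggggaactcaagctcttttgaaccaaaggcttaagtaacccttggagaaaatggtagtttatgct
LINC00844 (chr10:60679786-60679985): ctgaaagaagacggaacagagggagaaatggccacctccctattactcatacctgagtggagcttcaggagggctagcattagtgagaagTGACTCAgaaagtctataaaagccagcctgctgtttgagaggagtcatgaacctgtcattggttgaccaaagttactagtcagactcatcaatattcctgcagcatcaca
ENSG00000250024 (chr4:190011427-190011626): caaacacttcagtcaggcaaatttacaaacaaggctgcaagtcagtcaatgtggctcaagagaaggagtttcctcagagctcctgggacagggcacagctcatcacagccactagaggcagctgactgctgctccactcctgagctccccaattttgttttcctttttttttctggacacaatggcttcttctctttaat
SLC9A9 (chr3:143494303-143494502): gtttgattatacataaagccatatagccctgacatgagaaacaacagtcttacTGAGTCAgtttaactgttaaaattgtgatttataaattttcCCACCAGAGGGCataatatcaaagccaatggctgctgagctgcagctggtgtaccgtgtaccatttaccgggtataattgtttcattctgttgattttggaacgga
UBE2E2-DT (chr3:23094143-23094342): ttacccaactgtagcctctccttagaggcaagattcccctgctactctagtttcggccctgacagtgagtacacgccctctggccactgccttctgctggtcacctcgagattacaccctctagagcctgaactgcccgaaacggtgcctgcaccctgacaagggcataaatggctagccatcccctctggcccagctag

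In all, 19163 siINO80#2 intervals were gained (36.6% of the list, the background share for subsets of the full list), and 6155 of them were repeated with siINO80#1 (11.7% of the list). The NTG list lost 35858 intervals (52.1% of the list), of which 26911 were repeated (39.1% of the list). Of the lost class 75% (74.6 to 75.5) repeated, against 32.1% (31.5 to 32.8) of the gained class. This order turned among intervals with −log10 q of at least 5, where 56.9% of lost and 60.8% of gained intervals repeated. Over the whole lists, 68.9% of siINO80#2 intervals and 56.3% of NTG intervals overlapped the siINO80#1 list. The siINO80#2 list was the shortest of the series. With the NTG and siINO80#1 lists cut to its size by fold enrichment, 21872 intervals were gained (41.7% of the list) and 22443 were lost (42.8% of the list). Repeated were 6267 gained intervals (12.0% of the list) and 17138 lost intervals (32.7% of the list). These are the background shares for subsets read at equal list size.

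Read depth differed between the lists, but not in the order of their sizes. Fold enrichment and the p-value of each summit give back the whole number of reads there: the median was 25 (range 15 to 1067) in the siINO80#2 list and 20 (12 to 663) in the NTG list. The lowest background at a summit was 5.34 reads with siINO80#2, 5.16 with siINO80#1 and 3.82 with NTG. The siINO80#1 list, whose background was near that of siINO80#2, held 68344 intervals, near the 68784 of NTG. The siINO80#2 intervals covered 23.4 Mb and those of NTG 30.003 Mb. The part of depth in the counts of gained and lost intervals was not tested.

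Gained and lost intervals were the weaker ones of their lists. Each list was split into 10 strength bins by fold enrichment, with ties kept together. Of the siINO80#2 list, 59.3% (57.9 to 60.6) of the weakest bin and 1.18% (0.920 to 1.51) of the strongest were gained. For the NTG list, 79.3% (78.4 to 80.3) of the weakest bin and 3.02% (2.64 to 3.46) of the strongest were lost. Gained intervals repeated more often with strength: 22.1% of those in the weakest bin and 95.2% of the 62 in the strongest also lay in the siINO80#1 list. Among lost intervals the course ran the other way, since 82.7% of the 208 lost from the strongest bin of NTG were present with siINO80#1. Most of the strongest losses were thus seen with siINO80#2 alone.

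**Figure D1:**
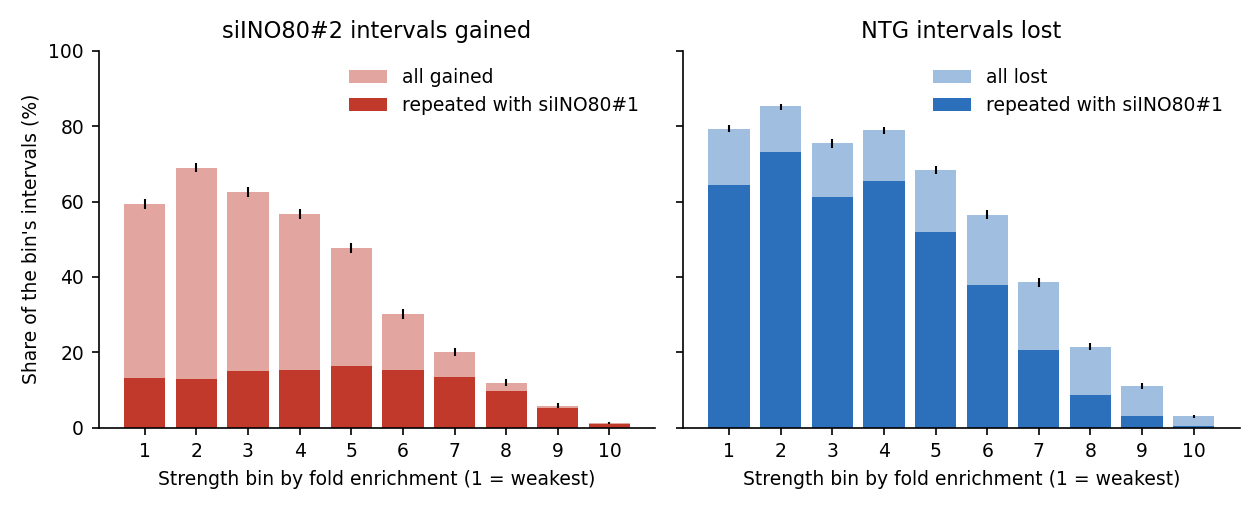
Share of intervals gained (left, siINO80#2 list) and lost (right, NTG list) in each of 10 strength bins of the list by fold enrichment (1 = weakest), in percent. Pale bars are all gained or lost intervals with 95% Wilson intervals, and the dark lower section of each bar is the repeated class; pale bars go from 59.3% to 1.18% on the left and from 79.3% to 3.02% on the right.

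Width, summits and base composition followed the same order. Median width was 457 bp in kept, 267 bp in repeated gained and 203 bp in siINO80#2-only gained intervals. Several summits were listed for 37.6% of kept and 6.44% of gained intervals of the siINO80#2 list. Of intervals of 1000 bp or more, 0.582% (0.388 to 0.872) of 3951 were gained and 1.90% (1.56 to 2.31) of 5112 were lost. Median GC content in the 200 bp around the summit was 51.0% in kept, 44% in gained and 46.0% in lost intervals. Windows under 40% GC were gained in 61.6% of 8616 cases and windows of 60% GC or more in 7.42% of 10031.

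Intervals at start sites were mostly kept, and most of the gained and lost ones lay away from start sites, inside introns or between genes. A start site lay within 1 kb of the summit in 37.3% (36.8 to 37.8) of kept, 9.84% (9.43 to 10.3) of gained and 14.5% (14.1 to 14.9) of lost intervals. Gained intervals were intronic in 51.0% and intergenic in 36.4% of cases, and lost intervals in 48.4% and 33.6%. The median distance to a protein-coding start site was 17.6 kb for kept, 63.1 kb for gained and 45.6 kb for lost intervals. Lost intervals that were still present with siINO80#1 stood nearer to genes. Of them, 23.9% (23 to 24.8) were within 1 kb of a start site, against 11.4% (11 to 11.8) of repeated lost intervals. In the repeated classes the order of gained and lost turned, as 12.8% (11.9 to 13.6) of repeated gained intervals were within 1 kb. At equal list size these repeated shares were 15.2% for gained and 11.1% for lost intervals.

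Of 19229 protein-coding genes, 10261 had an interval within 1 kb of a start site in both lists, 1746 with NTG only, 323 with siINO80#2 only and 6899 in neither. The same state was found with siINO80#1 for 643 of the NTG-only genes and for 181 of the siINO80#2-only genes. At equal list size the counts were 1132 genes with NTG only and 689 with siINO80#2 only. Among 18229 long non-coding RNA genes, 3813 were open in both lists, 1067 with NTG only and 354 with siINO80#2 only.

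The AP-1 motif was the sequence that most separated gained from lost windows. At equal list size, a match stood in 16.5% of 21872 gained and 5.94% of 22443 lost windows, and in 15.9% of all 52399 siINO80#2 and 11% of all 52399 NTG windows of the same length. Away from start sites (over 1 kb), 31.8% (30.6 to 33.1) of repeated gained and 5.43% (5.08 to 5.80) of repeated lost windows held it, a difference of 26.4 percentage points (Newcombe 95% interval 25.1 to 27.7). That contrast sets intervals found in both INO80 siRNA lists against intervals found in the NTG list alone. In siINO80#2-only gained and lost windows the shares were 11.3% (10.8 to 11.9) and 8.42% (7.62 to 9.30). Kept windows lay between, at 21.5% (20.9 to 22.1) around siINO80#2 summits. The repeated gained class was thus above the kept class, and the siINO80#2-only gained class below it.

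The share went up with strength in gained and in kept windows of the siINO80#2 list, and not in lost or kept windows of the NTG list. In 4 strength bins from weakest to strongest, gained windows over 1 kb from a start site held AP-1 in 10.1%, 15.4%, 32.3% and 47.8% of cases. Kept siINO80#2 windows rose too, with 10.7%, 14.4%, 19.9% and 30.2%, and were near the gained ones in the lower 2 bins. Lost windows held it in 5.94%, 6.31%, 6.38% and 4.16%. Kept NTG windows did not rise either, with 18.9%, 21.2%, 21.3% and 19.0%. Within bin 3, repeated gained windows had 39.1% (36.9 to 41.3) and siINO80#2-only gained windows 22.3% (20.1 to 24.7). At 45 to 50% GC, AP-1 stood in 21.3% (20.1 to 22.6) of gained, 6.78% (6.08 to 7.55) of lost and 25.2% (24 to 26.4) of kept siINO80#2 windows. Gained lay above lost in each of 7 GC ranges and below kept in 5 of them. Seen from the motif, NTG intervals with AP-1 were lost in 30.2% (29.1 to 31.3) of 6902 cases and those without in 54.6% (54.2 to 55) of 61882. On the gained side the shares were close: siINO80#2 intervals with AP-1 were gained in 37.4% (36.3 to 38.4) of 8341 cases and those without in 36.4% of 44058, both near the 36.6% of the whole list. Of these gained intervals, 56.6% (54.9 to 58.4) of those with AP-1 and 27.4% (26.7 to 28.1) of those without were repeated.

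**Figure D2:**
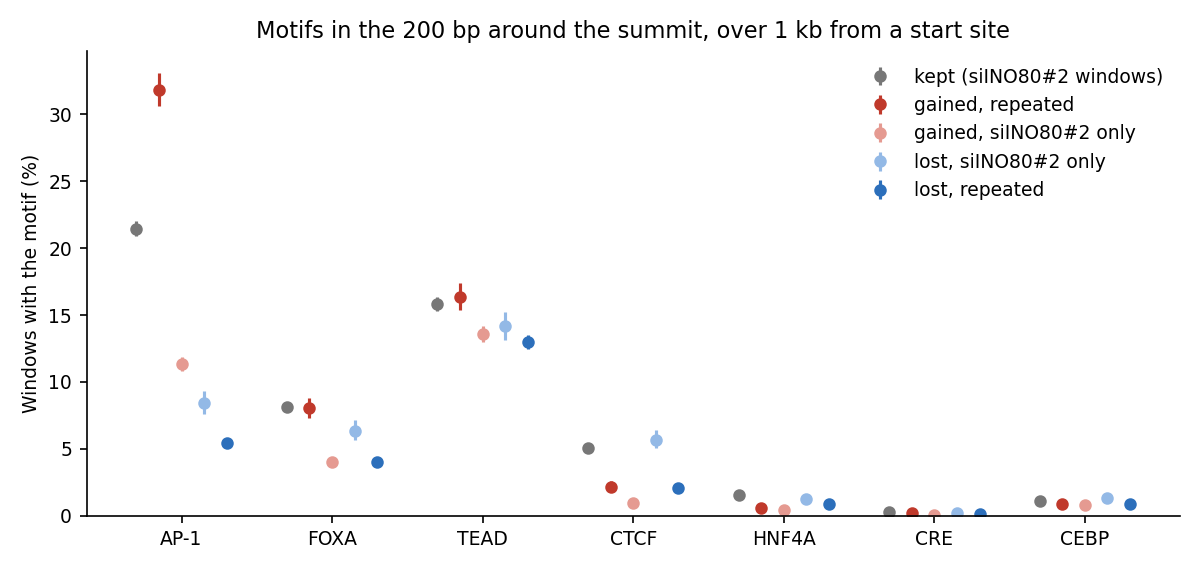
Percent of 200 bp summit windows over 1 kb from a start site that hold each motif, at equal list size, by class (colours), with 95% Wilson intervals. AP-1 spreads from 5.43% in repeated lost to 31.8% in repeated gained windows, while CTCF stands at 5.69% in windows lost with siINO80#2 only and 5.04% in kept windows.

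AP-1 matches stood close to the summit, as in the sequences printed above, where the match of HGF begins 7 bases before its summit and that of LINC00844 10 bases before. Among repeated gained intervals with a match in 400 bp, the median distance was 38 bp and 59.7% lay within 50 bp. Among repeated lost intervals it was 79 bp and 34.1%.

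**Figure D3:**
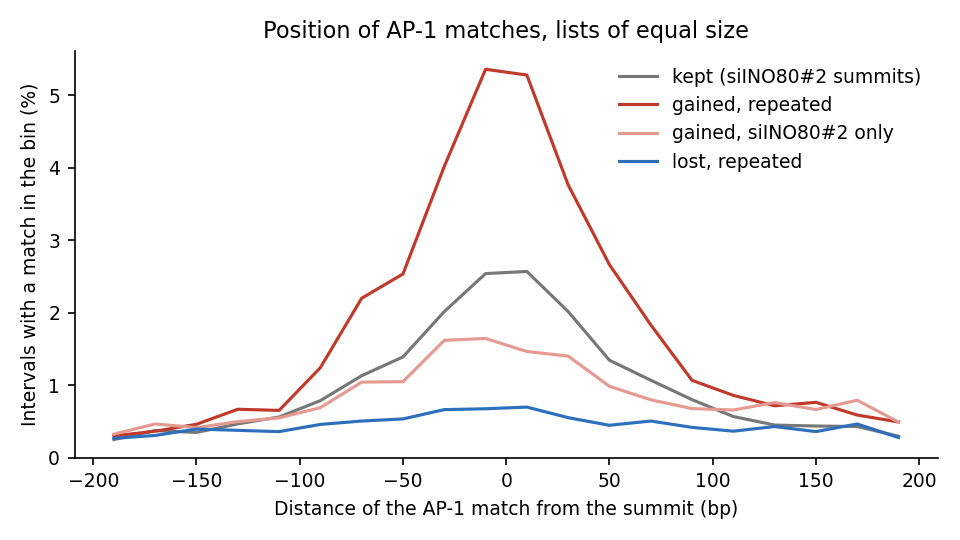
Percent of intervals with an AP-1 match in each 20 bp bin, by distance from the summit in bp, at equal list size, all intervals included. Repeated gained intervals peak at the summit, with 5.28% in the bin from 0 to 20 bp and 0.303% in the bin from -200 to -180 bp. Repeated lost intervals, whose matches had a median distance of 79 bp, rise less, with 0.700% and 0.268% in these bins.

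A scan of all 8192 words of 7 letters, each taken with its reverse complement, gave AP-1 first without using the motif list: TGACTCA led, with a share 10.6 percentage points higher in gained than in lost windows. The word ATGACTC followed at 4.45 points, then ATGAGTC at 3.91 points, GAGTCAC at 3.81 points, CTGAGTC at 3.44 points and GACTCAC at 3.23 points. CTGACTC had 3.14 points, TGAATCA had 2.55 points, AGTCATC had 2.39 points and AATGACT closed the first 10 at 2.08 points. Of these 10 words, 9 share a run of 5 or more letters with the AP-1 site, and TGAATCA, in 5.98% of gained and 3.43% of lost windows, does not. At the other end AGAGGGC stood in 4.33% of gained and 6.10% of lost windows, a difference of -1.77 points. CCAGCAG had -1.67 points, CAGCAGG had -1.64 points, CCACCAG had -1.57 points and AGGGCAG had -1.56 points. All of these 5 words but AGGGCAG can be read within the CTCF motif. The words overlap one another and are not separate findings.

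Among lost windows, CTCF matches were more frequent in those that siINO80#1 did not share. At equal list size and over 1 kb from a start site, the motif stood in 5.69% (5.03 to 6.44) of windows lost with siINO80#2 only, 2.04% (1.83 to 2.28) of repeated lost, 1.27% (1.12 to 1.43) of gained and 5.31% (5.00 to 5.64) of kept NTG windows, so the kept windows and those lost with siINO80#2 only had overlapping intervals. Seen from the motif, NTG intervals with CTCF were lost in 38.4% (36.2 to 40.6) of 1934 cases, against 52.1% of the whole list. They were also stronger, with a median percentile of 71.8 against 50 for the whole list. Strength differed between the lost classes too, as siINO80#2-only losses sat at a median percentile of 58.8 of the NTG list and repeated losses at 42.2. In strength bin 2 of 4 the shares of these classes were 4.68% (3.67 to 5.96) and 1.91% (1.57 to 2.31), and in bin 4 10.4% (8.04 to 13.2) and 11.5% (7.73 to 16.8), where the intervals overlap. Kept NTG windows held CTCF in 2.05%, 3.55%, 5.37% and 7.42% from the weakest to the strongest bin. In bins 3 and 4 both lost classes lay above kept windows, and in bin 1 both lay below. For bin 3 the lost shares were 7.58% (6.29 to 9.11) with siINO80#2 only and 5.93% (4.94 to 7.10) repeated, against 4.83 to 5.97 around the kept share.

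Motifs of liver factors gave smaller differences. FOXA (TGTTTAC) stood in 8.03% (7.33 to 8.79) of repeated gained and 4.04% (3.74 to 4.37) of repeated lost windows over 1 kb from a start site, close to the 8.10% (7.72 to 8.50) of kept windows. HNF4A (CAAAGTCCA) stood in 0.462% (0.375 to 0.568) of gained, 0.932% (0.806 to 1.08) of lost and 1.56% (1.39 to 1.74) of kept windows. TEAD (GGAATG) differed by 3.41 percentage points between repeated gained and repeated lost windows. The cyclic AMP response element (CRE, TGACGTCA), which ATF and CREB proteins bind, was in 12 of 5316 repeated gained and 16 of 15235 repeated lost windows. The motifs of promoters went with kept intervals: of 708 siINO80#2 windows with ETS (CCGGAAGT), 5.51% (4.06 to 7.44) were gained, and of 1770 with SP/KLF (GGGGCGGGG), 5.59% (4.62 to 6.76). Each search covered both strands.

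Kept intervals showed the same motif in their ranks. Each of the 33236 kept siINO80#2 intervals was paired with an NTG interval. Both were given a percentile of fold enrichment among these pairs, and the percentile with NTG was taken from that with siINO80#2. The 4476 kept intervals with AP-1 away from start sites stood 11.7 percentile points higher at the median (quartiles -1.57 and 29.4), and 71.8% of them were higher, against a median of 1.17 points and 52.8% for all 20842 kept intervals away from start sites. The 982 with CTCF stood lower, at -4.37 points (quartiles -16.2 and 8.52). Against the same NTG list, siINO80#1 gave 8.85 and -1.83 points. With kept intervals at all distances split into 5 bins by this shift, AP-1 stood in 7.22% of the lowest bin and 32.2% of the highest. Around the NTG summits of the same intervals these shares were 7.85% and 28%.

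Kept intervals with siINO80#2 were narrower than their NTG partners, with a median width ratio of 0.908, and 0.879 at start sites. For AP-1 intervals away from start sites the ratio was 1.10. With siINO80#1 these ratios were 0.999, 1.00 and 1.11, so the AP-1 intervals were wider with both siRNAs while the narrowing was seen with siINO80#2.

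**Figure D4:**
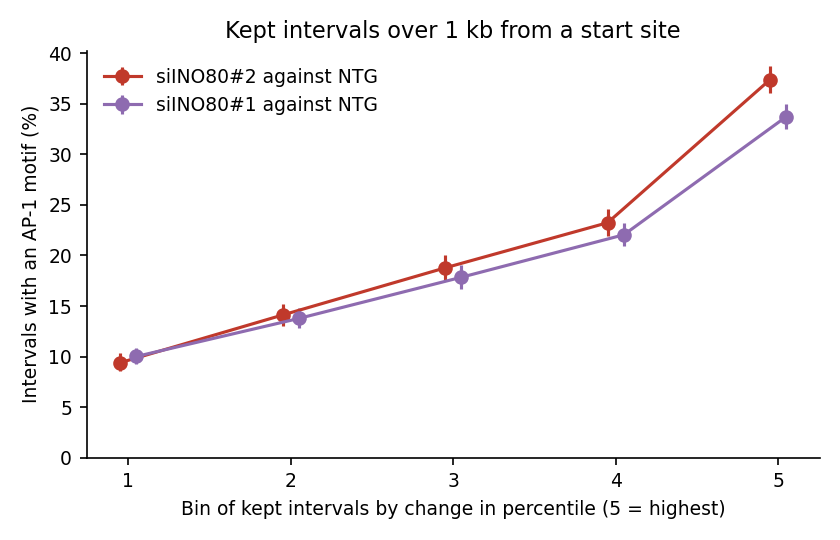
Percent of kept intervals over 1 kb from a start site with an AP-1 motif, in 5 bins of the change in percentile from NTG among kept pairs (5 = highest with the INO80 siRNA), with 95% Wilson intervals. It goes from 9.40% to 37.4% with siINO80#2 and from 10.0% to 33.7% with siINO80#1; both lines use the same NTG list.

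The 10 strongest repeated gained intervals with 1 near-identical place in the genome had 46 to 69 reads at the summit, and 5 of them held AP-1. The strongest of all was left out, as its sequence has 17 near-identical places. The first was chr13:80510528-80511190, between genes, 64.2 kb from the start of the non-coding RNA LINC00382. It had 58 reads and 8.80-fold enrichment with siINO80#2 and 31 reads and 5.20-fold with siINO80#1. The interval in an EYS intron (chr6:64754863-64755087) had 69 and 88 reads and 2 matches of the YY1 motif (AAGATGGC), a factor that is also an INO80 complex subunit. Of all 733 siINO80#2 intervals with this motif, 27.3% (24.2 to 30.6) were gained, below the 36.6% of the list. Of 884 NTG intervals with it, 42.2% (39.0 to 45.5) were lost, below 52.1%. EYS encodes a photoreceptor matrix protein.

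The interval nearest to HGF, the gene of hepatocyte growth factor, was chr7:81247712-81248150, in an annotated intron and 144 kb from the HGF start site, with 47 reads and 34 with siINO80#1. LINC00844 was the nearest gene of a further AP-1 interval between genes, with 47 reads. The interval at the CCSER2 start site (chr10:86184582-86184885), 47 reads, was the only one of the 10 within 1 kb of a start site. Others were nearest to LINC02605, LINC02869, LINC00879 and EBF2, and those of LINC02605 and EBF2 held AP-1.

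The 10 strongest repeated lost intervals had 38 to 57 reads with NTG, 1 held AP-1 and 1 CTCF. Both matches were in the interval in an SLC9A9 intron (chr3:143494318-143494657), 43 reads, 72.9 kb from the start site of this endosomal sodium-proton exchanger gene. The first of the 10 lay near the start of E2F5, a cell cycle transcription factor gene, with 43 reads. The next, nearest to ENSG00000250024 (chr4:190011440-190011626), had 42 reads, and UBE2E2-DT (chr3:23093968-23094414) had 45. Others, nearest to ENSG00000259061, RFPL4B, ENSG00000286285, ERC2 and ENSG00000227330, were all away from start sites. A further 3 stronger intervals were left out for their copies.

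Counts per gene at equal list size were led by very long genes. MACROD2 had the most repeated gained intervals, 16 over 2058 kb, with 30 repeated lost ones. LRP1B had the most repeated lost intervals, 64 over 1900 kb, with 11 repeated gained ones. EYS had 14 and 57. MACROD2 lies on chromosome 20, EYS on chromosome 6 and LRP1B on chromosome 2. Of siINO80#2 intervals there, 52.7%, 49.1% and 55.7% were gained, and of NTG intervals 39.1%, 46.8% and 51.2% were lost. Of 19229 protein-coding genes, 2890 had a repeated gained and 6076 a repeated lost interval in the body or 10 kb on either side, and 1584 had both. SLC25A21, a mitochondrial carrier gene, had 26 gained intervals (8 repeated), 15 kept and 3 lost (2 repeated), on chromosome 14, where 57.2% of all siINO80#2 intervals were gained.

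Chromosomes differed. At equal list size, 57.2% (55.4 to 59) of siINO80#2 intervals on chromosome 14 were gained, and 36.8% (34.7 to 39.0) of NTG intervals there were lost. The siINO80#2 list held 2889 intervals there and the NTG list 1920, a ratio of 1.50. Chromosome 20 had 52.7% gained and 39.1% lost, and chromosome 2, with 9132 siINO80#2 intervals, 55.7% and 51.2%. On chromosome 19 these were 25.3% and 32.4%. Gained intervals of chromosome 14 held AP-1 in 10.9% (9.48 to 12.5) and repeated in 19.6% of cases, whereas those of chromosome 5 did so in 22.7% (20.2 to 25.4) and 38.6%. The chromosomes with the highest gained share were thus not those with the highest AP-1 share. Copy number was not measured, and its part was not tested.

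**Figure D5:**
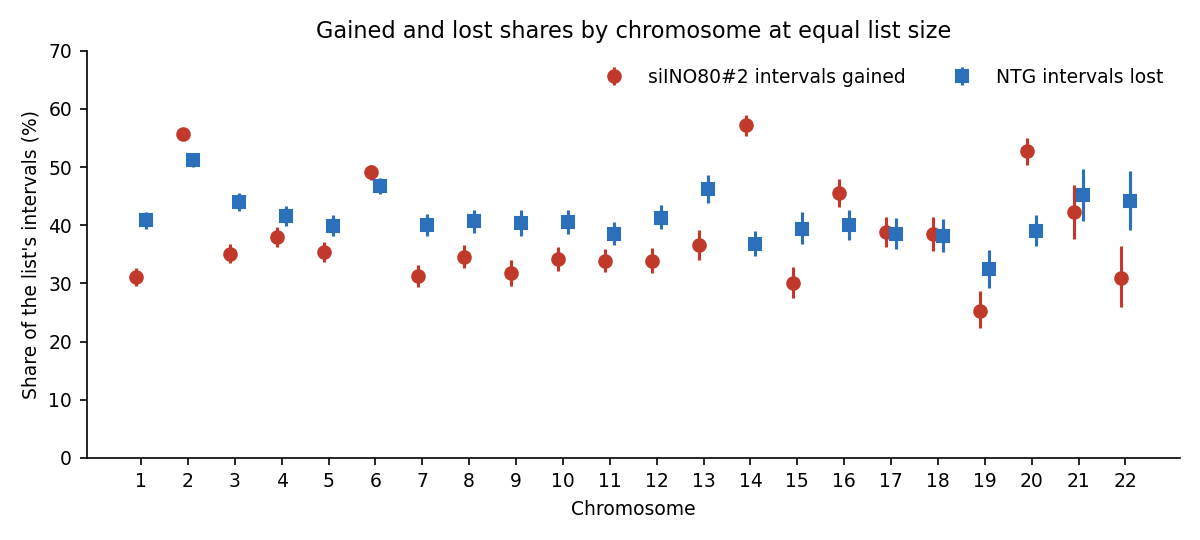
Percent of siINO80#2 intervals gained (circles) and of NTG intervals lost (squares) on each of chromosomes 1 to 22 at equal list size, with 95% Wilson intervals. Gained is above lost on chromosomes 14 (57.2% against 36.8%) and 20, and below it on chromosome 1 (31.1% against 40.8%).

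Gene lists chosen for this cell type and treatment were read at their start sites and within 100 kb. Of all 19229 protein-coding genes, 53.4% were open at a start site in both lists, 9.08% with NTG only and 1.68% with siINO80#2 only. Near any protein-coding start site, 30.2% of siINO80#2 intervals were gained and 47.1% of NTG intervals were lost. Of 15 INO80 complex subunit genes, 14 were open in both lists. The INO80 start site had 22 reads with NTG and 30 with siINO80#2, at percentiles 70.9 and 69.9 of their lists. MCRS1, another subunit, was open with NTG (22 reads, percentile 42.2) and with siINO80#1 (31 reads) but not listed with siINO80#2. Within 100 kb of the subunit genes, 19.8% (13.3 to 28.4) of 106 intervals were gained.

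Of 18 AP-1 family genes, 10 were open in both lists, JUN and FOS among them. The JUN interval had 93 reads with NTG and 81 with siINO80#2, at percentiles 86.7 and 83.9 of their lists. FOSB, BATF2 and MAFK were open with NTG only and BATF, with 16 reads 926 bp from a start site, with siINO80#2 only. FOSB and BATF2 were also open with siINO80#1, while MAFK and BATF were not. The FOSB interval was among the weakest of the NTG list (19 reads, percentile 1.12), and at equal list size FOSB was in neither list. None of the 18 gained intervals near these genes held AP-1 (upper limit of the Wilson interval 17.6%), a range that includes the 16.3% of all gained intervals.

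Of 30 known AP-1 and stress targets, 14 were open in both lists, PLAU, EPHA2 and VEGFA with NTG only, and MMP10 and IL6 with siINO80#2 only. None was open with NTG only at equal list size, since PLAU, EPHA2 and VEGFA were then in neither list. Then 5 were open with siINO80#2 only, as DUSP4, SPRY4 and LAMB3 joined MMP10 and IL6. These joining genes were open in both full lists, and their NTG start-site intervals were left out when that list was cut at 2.77-fold enrichment. Of all protein-coding genes, 5.89% were then open with NTG only and 3.58% with siINO80#2 only. MMP10, a matrix metalloproteinase gene, had an interval 8 bp from its start site with 25 reads (chr11:102651271-102651451) and with 26 reads in the siINO80#1 list. IL6, the interleukin-6 gene, had 19 reads with siINO80#2 and 23 with siINO80#1. Neither start-site interval held the AP-1 letters. Near the 30 genes 25.5% (19.9 to 32.1) of 192 intervals were gained, and 36.5% (30 to 43.5) at equal list size, where 35.5% of those near any protein-coding start site were. Of the 49 gained ones 11 held AP-1 (22.4%, 13.0 to 35.9), a range that includes the 16.3% of all gained intervals.

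Of 23 liver transcription factor genes, 15 were open in both lists, and 5 were open with NTG only, CEBPA, CEBPB, ONECUT1 and NR1I3 among them. All 5 were present with siINO80#1. The NTG intervals of CEBPA and CEBPB were among the weakest of that list, at percentiles of 0.773 for CEBPA and 10.7 for the stronger of CEBPB, while NR1I3, the constitutive androstane receptor gene, had 26 reads at percentile 70.02. At equal list size NR1I3 stayed in this class, and CEBPA, CEBPB and ONECUT1 did not. Of 144 siINO80#2 intervals near these genes, 24.3% (18.0 to 31.9) were gained.

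Of 26 hepatocyte secretory genes, 18 were open in both lists, and ALB (albumin) and AFP (alpha-fetoprotein), neighbours on chromosome 4, with NTG only. Both were open with siINO80#1. ALB had 3 NTG intervals at its start sites with 13, 16 and 19 reads. AFP also had 3, with 45, 20 and 20 reads, and the first, chr4:74297502-74299090, stood at percentile 90.04 of the NTG list and 92.7 of the siINO80#1 list. Within 100 kb, 17 of 21 NTG intervals were lost for ALB and 15 of 21 for AFP, windows that overlap each other, against 47.0% (41.0 to 53.0) of 264 for the whole list. All of these counts include the start-site intervals through which ALB and AFP were named. Part of the losses near both genes thus follows from that choice. Repeated with siINO80#1 were 11 of the 17 losses for ALB and 9 of the 15 for AFP, and 95 of 124 for the whole list. The APOA1 promoter, which was kept, had 52 reads with NTG and 40 with siINO80#2, counts that are not scaled for read depth.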

How the data were processed

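ATAC-seq was made by the authors from 3 replicate samples per siRNA, and 1 filtered list of peaks was deposited for each siRNA. The submitters' processing notes name Trim Galore 0.4.1, Bowtie2, SAMtools, MACS2, deepTools 2.2.4 and hg19. The commands, the peak filter (peak numbers are skipped in each list) and any shift of reads for the transposase are not given in the sources used here. Each deposited line holds a position, the fold enrichment of the summit over local background (a ratio), its −log10 p-value and −log10 q-value, and the distance of the summit from the interval start. Fold enrichment was used to rank intervals within 1 list and never compared between lists as signal.

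Lines with the same position were joined to 1 interval, and its strongest summit by fold enrichment stood for it. Overlaps, motif searches and read recovery were computed in Python 3.11.15 (pandas 2.3.3, pysam 0.24.0) and tested on simulated data, the overlaps against bedtools 2.31.1. Reads at the summit are the whole number that gives both the deposited fold and −log10 p-value under a Poisson background. Start sites, introns and exons came from GENCODE 44 lifted to GRCh37. Copies of a window were places of at least 90% identity over 160 bp, found with BLAST+ 2.17.0. Beyond the start-site, motif-window and list-size choices, alternatives covered the q-value, the overlap, merged neighbours and chromosome 2. Some intervals and genes that the rules select are not reported here.

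The intervals, gene lists and motifs were chosen with earlier results of these data known. The named intervals were the 10 strongest repeated gained and the 10 strongest repeated lost ones without copies, and the named genes those with the highest counts or with a differing start site in 5 lists. TIMP1 and F9 were listed but lie on chromosome X, and PECAM1 was not matched in the annotation. These lists hold no replicate values, so no test between siRNAs was made. Intervals cover counting error only, and reads without molecular identifiers are not independent molecules.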

Additional observations from a re-analysis of the deposited data

Results flagged for a closer look

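At equal list size, 3 measures of the whole lists moved in opposite directions from NTG with the 2 INO80 siRNAs, and the difference was not tested. The share of intervals with several summits was 28.6% with NTG, 26.2% with siINO80#2 (a difference of -2.38 percentage points) and 32.1% with siINO80#1. Median interval width was 379 bp, 326 bp (a difference of -53 bp) and 384 bp in the same order. The genome covered was 26.0 Mb, 23.4 Mb (a difference of -2.59 Mb) and 26.6 Mb. The share of intervals with AP-1, in contrast, was higher than in NTG with both siRNAs, by 4.95 and 5.53 percentage points.

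Chromosome X was outside the comparison. On it, 19.8% (16.9 to 23.1) of 645 siINO80#2 intervals were gained and 41.5% (38.3 to 44.8) of 875 NTG intervals were lost. Of the gained ones 81 of 128 lay in the siINO80#1 list too, and of the 363 lost ones 211 were also absent from it.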

How the results depend on the processing

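No paired analysis was possible because the 3 replicates of an siRNA share 1 deposited list. Leaving out a replicate was not run for the same reason. AP-1 stood in a higher share of gained than of lost intervals in 10 of 10 settings. Start sites stood in a higher share of lost than of gained ones in 10 of 10. Those settings read the gained and lost classes whole. In the repeated classes the start-site order turned, with 12.8% of gained and 11.4% of lost intervals. The repeated share was higher for lost than for gained intervals in 7 of 8, the exception being −log10 q of at least 5.

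The values that left the 95% interval of the reported one follow in the order −log10 q of at least 5, 50% of the interval covered, equal list size by fold enrichment, equal list size by −log10 q, the 10000 strongest intervals, neighbours within 500 bp merged and chromosome 2 left out, where "within" stands for a value inside that interval. The gained share was 36.6% as reported and then 21.1%, 44.1%, 41.7%, 40.5%, 31.2%, 36% and 33.7%. The lost share was 52.1% as reported and then 37.2%, 60.6%, 42.8%, 41.5%, 31.3%, 51.3% and 50.3%. The repeated share of gained intervals was 32.1% as reported and then 60.8%, 29.7%, 28.7%, 29.1%, 49.6%, within and 34.8%. The repeated share of lost intervals was 75% as reported and then 56.9%, 77.4%, 76.4%, 73.8%, 66.7%, within and 73.5%. The start-site share of gained intervals was 9.84% as reported and then 14.1%, 11.2%, 11.9%, 10.5%, 26.7%, 8.96% and 11%, with 17.1% at 2.5 kb and 4.38% for protein-coding transcripts. The start-site share of lost intervals was 14.5% as reported and then 25.1%, 16.6%, 13.5%, 16.1%, 34.6%, 13.2% and 16.2%, with 22.4% at 2.5 kb and 8.28% for protein-coding transcripts. The AP-1 share of gained intervals was 16.3% as reported and then 37.7%, 17.2%, within, within, 36.9%, 16.8% and 17.9%, with 10.5% in 100 bp and 22.2% in 400 bp. The AP-1 share of lost intervals was 5.81% as reported and then 7.5%, 6.3%, within, within, 6.62%, within and within, with 3.29% in 100 bp and 9.73% in 400 bp.

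The cause of these shifts was not tested, apart from those that the size of the list or window sets by construction. Presence in a list is a threshold, and values near it have no replicate check. Without replicate values, the spread between transfections is not known.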
